A study of Mus musculus with 13 samples.

Results

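The genes described here encode titin (Ttn), nebulin (Neb), the M-band proteins myomesin 1 and 2 (Myom1, Myom2), the myosin-binding proteins C of slow and fast muscle (Mybpc1, Mybpc2), myosin-binding protein H (Mybph), nebulin-related anchoring protein (Nrap) and telethonin (Tcap). They were chosen by symbol, as the giant ruler proteins of the sarcomere, the M-band proteins, the myosin-binding proteins and 2 of their anchoring partners, and all 9 were found once each among the 23366 genes of the count table. RNA was sequenced from 13 libraries of cultured mouse muscle cells of mixed strain. They comprise 2 libraries of dICR/dICR myotubes, 5 of wild-type myotubes, 2 of dICR/dICR myoblasts and 4 of wild-type myoblasts. Myoblasts were primary cells from hind limb muscle of pups 2 to 3 days old, expanded in medium with 10% calf serum and fibroblast growth factor, and myotubes were such cells kept for 24 hours in 1% horse serum. The dICR/dICR cells carried on both alleles a deletion of the imprinting control region between H19 and Igf2, and the wild-type cells carried none. The labels do not say how many pups, cultures or litters stand behind the replicates, and p-values here therefore reflect no more than the spread among these libraries, which may be technical.

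The sarcomere is the contractile unit of striated muscle. A titin molecule reaches from the Z-disc, where telethonin caps its end, to the M-band, where myomesins crosslink titin and the myosin filaments. Nebulin runs along the thin filament and is known in mouse as a determinant of its length, and Nrap is a scaffold of actin and actinin in the first, immature myofibrils. Myosin-binding proteins C and H sit in stripes on the thick filament and bind both myosin and titin. In cultured muscle cells these genes are switched on when myoblasts leave the cell cycle and fuse.

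Library totals ranged from 35.56 to 56.44 M (mega) counts in 7 libraries, here called the deep set, and from 5.31 to 10.91 M in the other 6, the shallow set, a split at 20 M counts that was read from the data. Wild-type myotubes 1 to 3, wild-type myoblasts 1 and 2 and both dICR/dICR myotubes are deep. Wild-type myotubes 4 and 5, wild-type myoblasts 3 and 4 and both dICR/dICR myoblasts are shallow. The sets differ in more than depth: small nucleolar RNA genes took 2.79 to 7.13% of counts in the shallow set and 0.0118 to 0.133% in the deep set. The labels name 2 sequencing platforms without saying which library was run on which, and the sources used here do not say whether the sets are the platforms. H19, which lies beside the deleted region, stood between 52.4 and 71.5 CPM (counts per mega count, after scaling by trimmed mean of M-values) in the 4 dICR/dICR libraries and between 2340 and 40500 CPM in the 9 wild-type ones. The muscle markers Des and Myod1 were found in all libraries, and of 6 differentiation markers, Myog, Acta1, Myh3 and Cdkn1a were higher in every myotube library of a genotype than in every myoblast library of the same genotype. The other 2 overlapped in wild type, Ckm at 51.6 to 571 CPM in myotubes against 2.08 to 72.9 CPM in myoblasts and Mymk at 90.8 to 429 CPM against 14.8 to 105 CPM. Summed markers of endothelium, macrophages, adipocytes, Schwann cells and cardiac muscle stayed at or under 7.84 CPM in every library, and the 2 erythroid markers were at 0. The 7 fibroblast markers summed to 95 to 918 CPM, mostly Col3a1. The 6 smooth muscle and pericyte markers summed to 1070 to 2330 CPM in dICR/dICR myotubes, 2290 to 4540 CPM in wild-type myotubes, 164 to 298 CPM in dICR/dICR myoblasts and 104 to 457 CPM in wild-type myoblasts, mostly Acta2.

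Titin dominated the group. Its counts made up 0.776 and 2.07% of all counts in dICR/dICR myotubes, against 1.91, 2.33, 5.92, 1.89 and 2.46% in wild-type myotubes 1 to 5. In myoblasts the share was 0.752 and 0.252% in dICR/dICR cells, against 0.264, 0.165, 1.03 and 1.4% in wild-type myoblasts 1 to 4. The 9 genes together took 0.23 to 6.72% of a library. The order of the genes changes when a level is divided by length, for which the union of annotated exons was used (GENCODE M21, GRCm38), from 116.83 kb for Ttn to 0.95 kb for Tcap. Per kb, Mybph averaged 328 ± 119 CPM and Ttn 283 ± 176 CPM in wild-type myotubes (SD, n = 5), and these neighbours in the order overlap. Nrap (154 ± 90.3), Neb (140 ± 64.2) and Myom2 (124 ± 51.7 CPM per kb) followed, also within each other's spread. Mybpc2 was lowest per kb, at 1.59 ± 2.63 CPM per kb in wild-type myotubes, and rested on 5 to 111 counts per library. By group mean, 6 of the 9 genes (Ttn, Neb, Myom1, Myom2, Mybpc1 and Mybph) stood in 1 order: wild-type myotubes, dICR/dICR myotubes, wild-type myoblasts, dICR/dICR myoblasts.

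**Figure D1:**
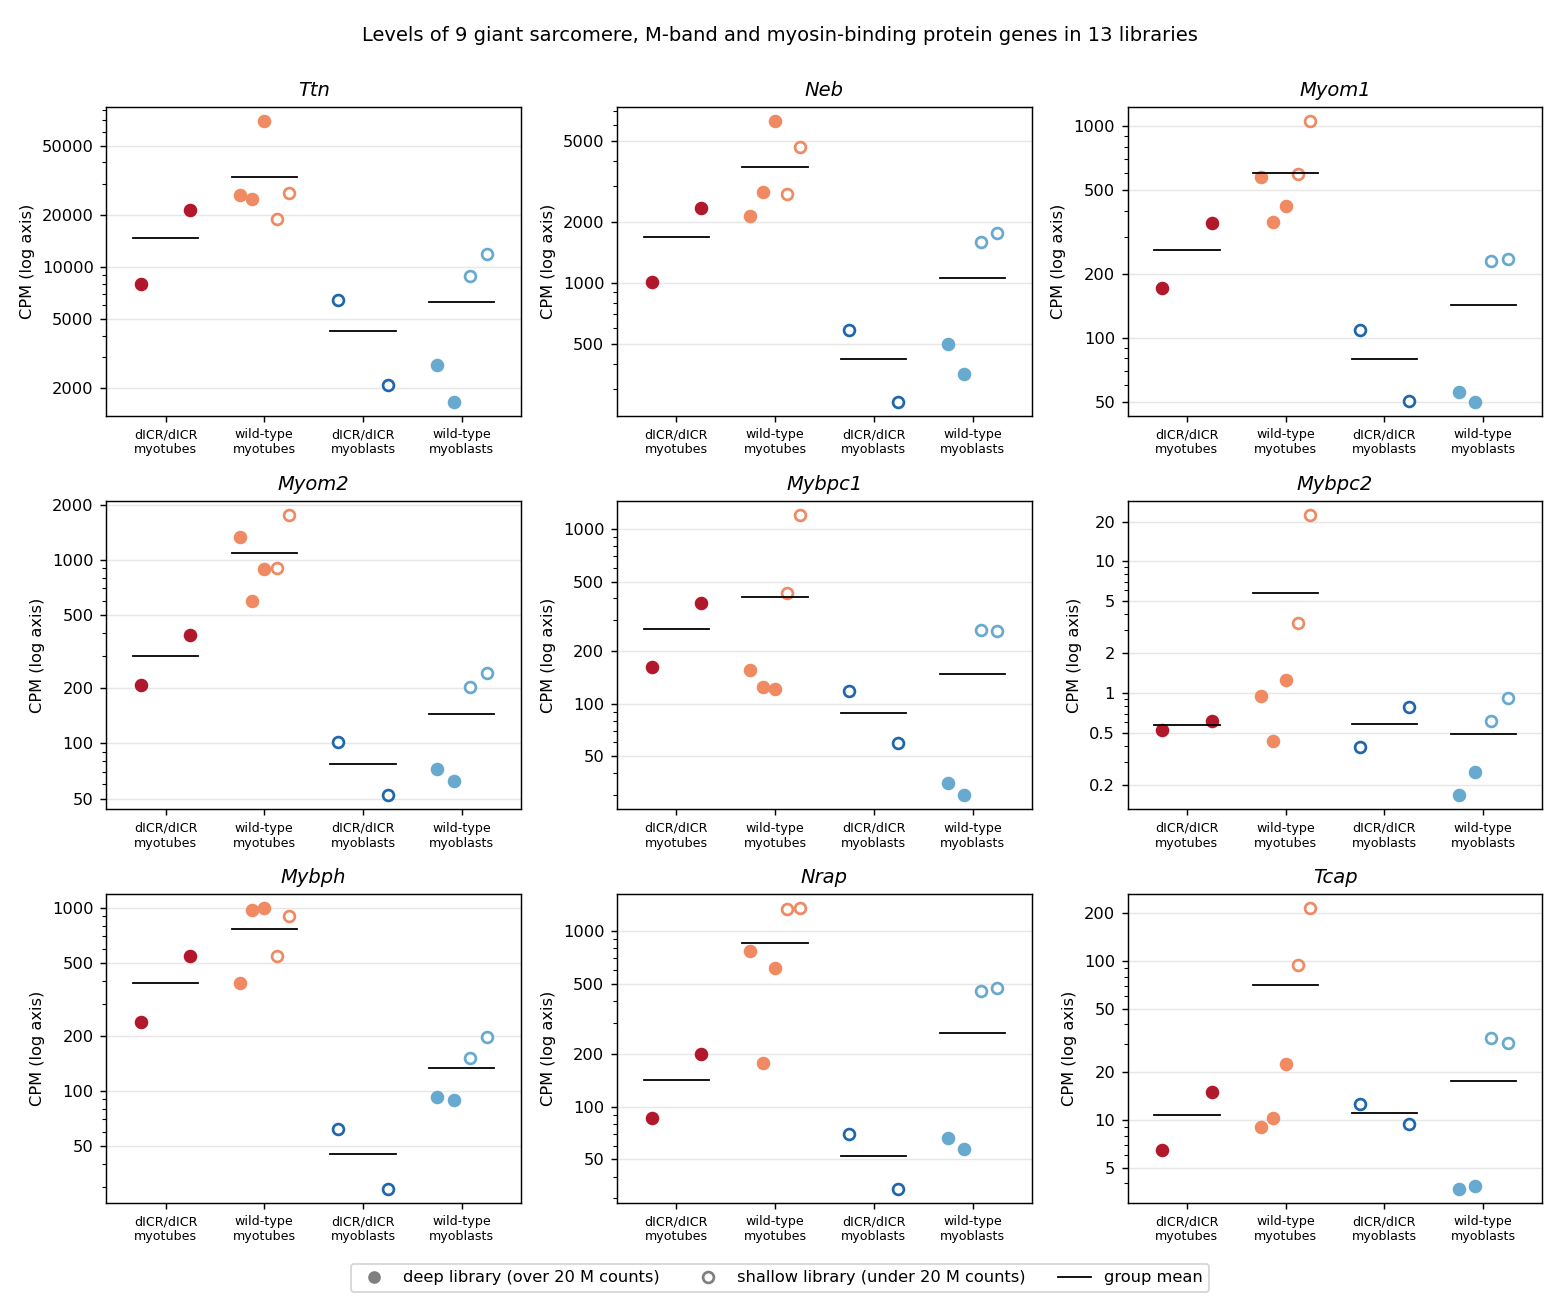
Levels of the 9 genes in CPM (log axis) in each library, with filled points for deep and open points for shallow libraries, and group means as black lines. Wild-type myotube 3 stands highest for Ttn at 69400 CPM, and wild-type myotube 5 for Mybpc2 at 22.6 CPM and Tcap at 216 CPM, while shallow wild-type myoblasts lie above deep ones in all 9 panels.

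The first comparison asks which of these genes change when wild-type myoblasts become myotubes. Ttn, Neb, Myom1, Myom2, Mybpc2 and Mybph rose, that is 6 of 9 members, where 8.86% of the 16537 genes tested were called higher (edgeR quasi-likelihood, Benjamini-Hochberg adjusted p under 0.05, 5 against 4 libraries). No member fell, where 10.2% of genes did. In 5 of 9 members (Ttn, Neb, Myom1, Myom2 and Mybph) every myotube library lay above every myoblast library, as in 9.07% of genes. The other 3, Mybpc1, Nrap and Tcap, had positive log2 fold changes of 1.47 ± 0.87, 1.69 ± 0.74 and 2 ± 1.02 (SE) that did not pass (adjusted p = 0.263, 0.133 and 0.193). The median log2 fold change of the 9 was 2.07, beside 0.02 over all genes. Some markers of other cell types were also called, in both directions, but none of endothelium, Schwann cells or cardiac muscle. Of the smooth muscle and pericyte list Acta2 (3.77 ± 0.60) and Tagln (1.97 ± 0.49) rose and Rgs5 (-4.99 ± 1.08) fell. Of the macrophage list Itgam rose (2.22 ± 0.53) and Cd68 fell (-1.13 ± 0.31). Of the fibroblast list only Col1a1 was called (5.83 ± 1.31), at 0.686 to 79.9 CPM in wild-type myotubes against 0.123 to 1.07 CPM in wild-type myoblasts. The part of these markers in the result was not tested. Within the deep set (3 against 2 libraries) 8 of 9 rose, where 14.3% of genes were called higher, and within the shallow set (2 against 2) 5 of 9 rose, where 3.72% were. With the depth set as a term in the model all 9 rose, and 5267 of the 16537 genes were called in either direction, against 3158 without the term. In bulk RNA, more differentiated cells and more RNA per differentiated cell cannot be told apart.

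The count of 6 rests on few libraries. It was 2 without wild-type myoblast 1 or without wild-type myoblast 2, 3 when wild-type myotube 5 was left out and 4 when wild-type myotube 3 was. Myom2 and Mybph passed without any 1 of the 13 libraries. With library size alone as the scaling, which moves the median of all genes by -0.28, the count was also 2, and all 9 values stayed positive.

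Titin, the molecular spring of the sarcomere, stood at 25800, 24600, 69400, 18900 and 26600 CPM in wild-type myotubes 1 to 5, against 2690, 1660, 8850 and 11900 CPM in wild-type myoblasts 1 to 4. Every myotube library lay above every myoblast library. The log2 fold change was 2.4 ± 0.68 (5.27-fold, adjusted p = 0.0284), 4.2 ± 0.75 within the deep set (adjusted p = 0.002) and 1.13 ± 0.69 within the shallow set (adjusted p = 0.352). The call over all libraries was lost without wild-type myoblast 1 (adjusted p = 0.0816), wild-type myoblast 2 (0.0685) or wild-type myotube 3 (1.92 on the log2 scale, adjusted p = 0.0676).

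Nebulin was at 2140, 2820, 6270, 2730 and 4650 CPM in wild-type myotubes 1 to 5, against 501, 357, 1600 and 1760 CPM in wild-type myoblasts 1 to 4. The groups did not overlap, and wild-type myotube 3 was the highest for nebulin as for titin. The log2 fold change was 1.82 ± 0.56 (adjusted p = 0.0393), 3.13 ± 0.59 in the deep set (adjusted p = 0.00271) and 1.14 ± 0.57 in the shallow set (adjusted p = 0.253). It did not pass without wild-type myoblasts 1 or 2 or wild-type myotubes 3 or 5 (adjusted p = 0.0704 to 0.108). The fold changes of the sets were compared as shallow minus deep, where 0.435% of genes and none of the 9 members were called by edgeR, and 3 members had an unadjusted p under 0.05, against 12.3% of genes. The difference was -3.07 ± 0.95 for Ttn and -1.99 ± 0.78 for Neb, with unadjusted p = 0.00751 and 0.0258 and adjusted p = 0.211 and 0.327 in edgeR, a test chosen after the data were seen. Myom1, the other of the 3, had -1.27 ± 0.57.

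Both genes of the M-band pair rose. Myom2 had 1330, 596, 891, 906 and 1770 CPM in wild-type myotubes 1 to 5, against 72.7, 62, 202 and 241 CPM in wild-type myoblasts 1 to 4, a log2 fold change of 2.93 ± 0.51 (7.6-fold, adjusted p = 0.00332). Myom1 had 576, 353, 420, 598 and 1060 CPM, against 55.5, 49.9, 231 and 237 CPM, a log2 fold change of 2.07 ± 0.56 (4.2-fold, adjusted p = 0.0238). Neither gene's groups overlapped. Both rose within each set, Myom2 by 3.8 ± 0.49 (deep) and 2.59 ± 0.48 (shallow) and Myom1 by 3.09 ± 0.44 and 1.82 ± 0.43. The Myom1 call over all libraries was lost without wild-type myoblast 1 (adjusted p = 0.0666), wild-type myoblast 2 (0.0636) or wild-type myotube 5 (0.0506). Part of the Myom1 gene span is shared with Myl12a on the other strand, and the sources used here give no strand setting for the counting.

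Of the myosin-binding proteins, Mybph had the smallest adjusted p of the 9. It stood at 390, 976, 1000, 548 and 905 CPM in wild-type myotubes 1 to 5, against 92.6, 89.4, 152 and 198 CPM in wild-type myoblasts 1 to 4, a log2 fold change of 2.52 ± 0.42 (5.75-fold, adjusted p = 0.00276). The lowest myotube library was above the highest myoblast library. It rose in each set, by 3.12 ± 0.53 (deep) and 2.05 ± 0.53 (shallow, log2 scale). Mybph shares part of its span with Adora1 on the other strand. Mybpc1 followed the depth set as much as the cell type: it had 156, 124 and 122 CPM in deep and 431 and 1210 CPM in shallow wild-type myotubes, against 35 and 29.9 CPM in deep and 265 and 261 CPM in shallow wild-type myoblasts. The shallow myoblasts thus lay above the deep myotubes. Within the deep set Mybpc1 rose by 2.05 ± 0.47 (adjusted p = 0.00802), a call lost without wild-type myoblast 1 (0.056) or 2 (0.0798). Within the shallow set its value was 1.64 ± 0.49 (adjusted p = 0.065). Mybpc2, of fast fibres, had 0.952, 0.434, 1.25, 3.39 and 22.6 CPM in wild-type myotubes 1 to 5, against 0.168, 0.253, 0.617 and 0.919 CPM in wild-type myoblasts 1 to 4. Its log2 fold change of 3.71 ± 1.19 (adjusted p = 0.0472) was 1.76 without wild-type myotube 5 (adjusted p = 0.128), and the call was lost in 10 of the 13 fits that leave out 1 library (adjusted p = 0.0563 to 0.129), holding without wild-type myotubes 1, 2 or 3.

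Nrap and Tcap, the anchoring partners, separated by cell type within a set but not across sets. Nrap had 771, 178 and 617 CPM in deep and 1330 and 1350 CPM in shallow wild-type myotubes, against 66 and 57.4 CPM in deep and 453 and 476 CPM in shallow wild-type myoblasts. It rose within the deep set by 3.08 ± 0.59 (adjusted p = 0.00294), and the shallow value was 1.53 ± 0.58 (adjusted p = 0.131). Wild-type myotube 2, the lowest myotube library for Nrap, was also the one with the highest mean of the 15 cell cycle genes among wild-type myotubes, 6.22 log2 CPM against 2.27 to 3.88 in the other 4, and the part of this in the Nrap value was not tested. Tcap had 9.03, 10.3 and 22.5 CPM in deep and 95.3 and 216 CPM in shallow wild-type myotubes, against 3.71 and 3.87 CPM in deep and 32.7 and 30.8 CPM in shallow wild-type myoblasts. It rose in both sets, by 1.88 ± 0.49 (deep, adjusted p = 0.0151) and 2.29 ± 0.53 (shallow, adjusted p = 0.0258). The deep Tcap call was lost without wild-type myoblast 1 (adjusted p = 0.101) or 2 (0.0974). All 5 shallow calls, those of Myom1, Myom2, Mybpc2, Mybph and Tcap, were lost without wild-type myoblast 3, wild-type myoblast 4 or wild-type myotube 5, and that of Mybph also without wild-type myoblasts 1 or 2 or wild-type myotube 4 (adjusted p = 0.0559 to 0.0639). Nrap overlaps Habp2 on the other strand.

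**Figure D2:**
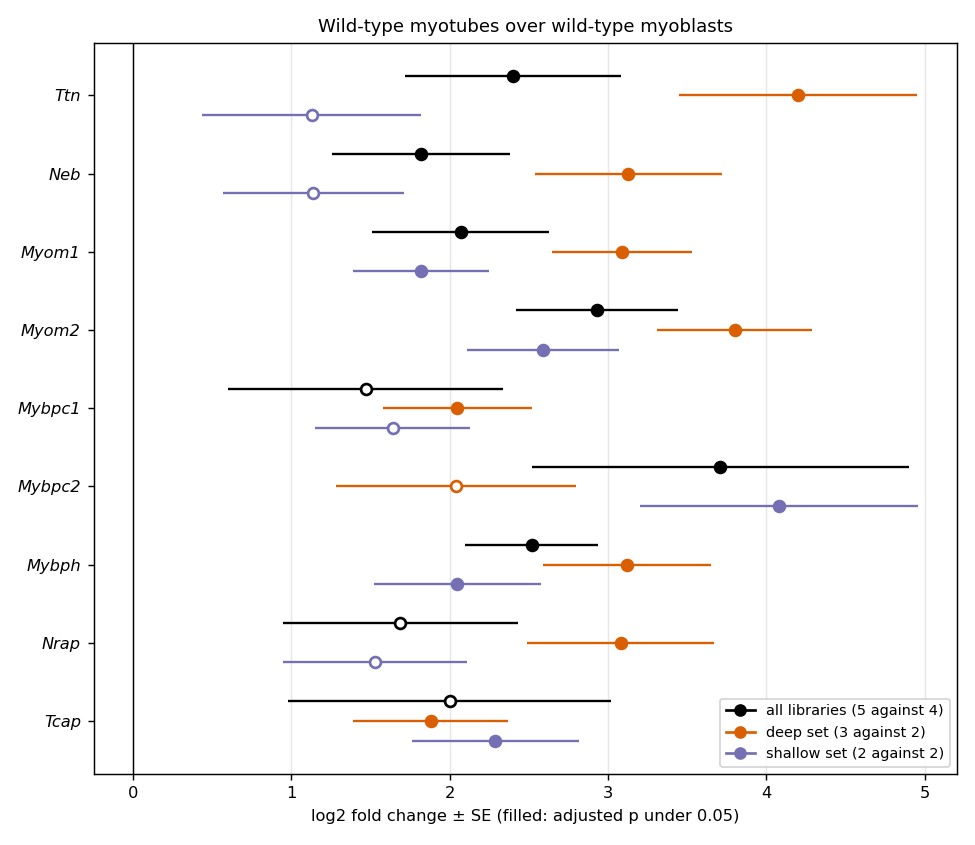
Log2 fold change of wild-type myotubes over wild-type myoblasts with SE for each gene, over all libraries and within each depth set, with filled points for adjusted p under 0.05. All points lie above 0. Ttn runs from 1.13 in the shallow set to 4.2 in the deep set, and Mybph from 2.05 to 3.12.

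Promoter sequence is printed for 4 genes that rose together within the deep set but differ in how they followed the depth set. RefSeq promoter windows, 250 bases before to 50 after an annotated start in GRCm38.p6, were given for 6 of the 9 genes; Neb, Myom2 and Tcap were not among them. The windows are chr2:76982498-76982797 (minus strand) for Ttn, chr1:134193198-134193497 (plus) for Mybph, chr19:56389989-56390288 (minus) for Nrap and chr10:88605103-88605402 (minus) for Mybpc1. They read 5′ to 3′ on the gene's strand, and capitals mark E-boxes (CANNTG, the motif bound by the MyoD family) and the MEF2 box.
Ttn: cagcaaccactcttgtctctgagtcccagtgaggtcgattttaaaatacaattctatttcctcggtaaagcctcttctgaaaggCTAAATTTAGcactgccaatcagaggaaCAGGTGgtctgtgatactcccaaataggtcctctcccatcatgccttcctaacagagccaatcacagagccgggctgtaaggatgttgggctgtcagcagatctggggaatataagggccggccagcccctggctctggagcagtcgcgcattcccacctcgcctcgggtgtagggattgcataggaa
Mybph: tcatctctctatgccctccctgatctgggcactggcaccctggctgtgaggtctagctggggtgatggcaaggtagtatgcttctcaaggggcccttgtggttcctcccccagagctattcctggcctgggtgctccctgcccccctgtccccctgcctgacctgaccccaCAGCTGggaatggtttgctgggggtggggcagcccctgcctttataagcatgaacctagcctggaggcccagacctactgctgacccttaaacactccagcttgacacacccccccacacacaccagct
Nrap: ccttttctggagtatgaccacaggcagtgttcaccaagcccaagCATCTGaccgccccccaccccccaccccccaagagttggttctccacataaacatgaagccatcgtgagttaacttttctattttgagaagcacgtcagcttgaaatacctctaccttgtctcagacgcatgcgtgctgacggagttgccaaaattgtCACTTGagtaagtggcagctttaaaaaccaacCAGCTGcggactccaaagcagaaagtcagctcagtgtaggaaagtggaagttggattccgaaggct
Mybpc1: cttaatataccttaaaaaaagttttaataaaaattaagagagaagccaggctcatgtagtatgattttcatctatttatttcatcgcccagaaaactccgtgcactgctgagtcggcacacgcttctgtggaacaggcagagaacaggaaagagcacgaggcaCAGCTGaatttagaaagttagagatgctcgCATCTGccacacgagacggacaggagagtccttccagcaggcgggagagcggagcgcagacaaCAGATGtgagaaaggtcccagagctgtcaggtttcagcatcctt
All 6 windows held an E-box, as did 72.3% of 32841 promoter windows searched on both strands. The narrower E-box CAGCTG stood in 3 of 6 (Mybph, Nrap and Mybpc1), against 16.3% of all windows, and the MEF2 box in 1 of 6 (Ttn), against 3.19%. The MCAT motif CATTCC, bound by TEAD factors, stood in 3 of 6 (Mybph, Ttn and Mybpc2), against 14.7%, and TATAAA in 1 of 6 (Mybph), against 13.6%. The CArG box of serum response factor stood in 1 of 6 (Myom1), against 1.63%. These are matches of letters in 1 window per gene, and CAGCTG matches are among the E-boxes.

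The depth sets themselves were compared within wild type. In myoblasts 7 of 9 members were higher in shallow than in deep libraries (2 against 2), where 10.1% of genes were called higher: Mybpc1 by 3.02 ± 0.52, Tcap by 3.07 ± 0.55, Nrap by 2.91 ± 0.61, Ttn by 2.26 ± 0.71, Myom1 by 2.15 ± 0.44, Neb by 1.97 ± 0.59 and Myom2 by 1.72 ± 0.47 on the log2 scale. Mybph (0.94 ± 0.51) and Mybpc2 (1.83 ± 0.92) did not pass. In myotubes 3 of 9 were higher in the shallow libraries (2 against 3), where 5.41% of genes were, namely Mybpc1 by 2.62 ± 0.44, Mybpc2 by 3.87 ± 0.70 and Tcap by 3.48 ± 0.47, whereas Ttn had -0.81 ± 0.63 (adjusted p = 0.433). Without wild-type myotube 5 the Mybpc2 value was 1.94 and did not pass (adjusted p = 0.13). The myoblast count was 3, 2, 4 and 4 without wild-type myoblasts 1, 2, 3 and 4, and Mybpc1 and Tcap were called in each of these. The count was 6 without wild-type myotube 4 or 5, where Ttn did not pass (adjusted p = 0.0526 and 0.0525). The 6 differentiation markers moved with the myoblast values, with a mean of 8.96 and 9.18 log2 CPM in shallow and 6.64 and 6.66 in deep wild-type myoblasts, and the part of this in the result was not tested. The Y-linked gene Ddx3y also followed the sets: it was at 0.247 and 0.153 CPM in shallow and 33.4 and 27.6 CPM in deep wild-type myoblasts, and at 0.462 and 0.407 CPM in shallow and 176, 39.1 and 99.9 CPM in deep wild-type myotubes. Within wild type, depth set and the sex of the cells therefore cannot be told apart. Because the sets differ this much, genotypes are compared both over all libraries and inside a single set.

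The next comparison asks whether the 9 genes differ in myotubes that lack the imprinting control region. No member passed in dICR/dICR against wild-type myotubes (2 against 5), where 0.556% of genes were called (edgeR quasi-likelihood), and 3 had an unadjusted p under 0.05, against 16.8% of all genes. By DESeq2, Myom2 (-1.95, adjusted p = 0.0262) and Nrap (-2.67, adjusted p = 0.0371) were lower, in a fit that called 1120 genes, against 92 by edgeR. All 9 log2 fold changes were negative, with a median of -1.2, beside -0.06 over all genes. Within the deep set (2 against 3), where 3.63% of genes were called, no member passed by edgeR, 4 had an unadjusted p under 0.05, against 21.3% of genes, and 8 of 9 values were negative.

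The M-band gene Myom2 had 209 and 391 CPM in dICR/dICR myotubes, against 1330, 596, 891, 906 and 1770 CPM in wild-type myotubes 1 to 5. Every dICR/dICR library lay below every wild-type one. The log2 fold change was -1.87 ± 0.64 (adjusted p = 0.186) and -1.65 ± 0.44 within the deep set (adjusted p = 0.0623). Myom1 also lay below without overlap, at 172 and 351 CPM against 353 to 1060 CPM, with -1.2 ± 0.70 (adjusted p = 0.401) and -0.78 ± 0.39 in the deep set (adjusted p = 0.273). Such separation, all libraries below, was seen in 8.76% of genes tested. Over all libraries the other 7 genes overlapped between genotypes. Nrap had 86.3 and 198 CPM in dICR/dICR myotubes, against 771, 178, 617, 1330 and 1350 CPM, with -2.58 ± 1.03 (adjusted p = 0.244) and -1.88 ± 0.55 in the deep set (adjusted p = 0.084). Without wild-type myotube 2, Myom2 and Nrap passed within the deep set, at -1.9 and -2.31 (edgeR adjusted p = 0.0102 and 0.00254). Leaving out 1 library at a time, 53 to 2263 of all genes were called there in either direction, against 601 with none left out. Wild-type myotube 2 had the highest cell cycle mean of the wild-type myotubes, 6.22 log2 CPM, and its part in the 2 calls was not tested.

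Ttn stood at 7950 and 21300 CPM in dICR/dICR myotubes, against 18900 to 69400 CPM in wild-type myotubes, a log2 fold change of -1.18 ± 0.83 (adjusted p = 0.487). Neb stood at 1010 and 2350 CPM against 2140 to 6270 CPM (-1.15 ± 0.70, adjusted p = 0.42), and Mybph at 238 and 544 CPM against 390 to 1000 CPM (-0.97 ± 0.51, adjusted p = 0.356). In all 3 the second dICR/dICR library was inside the range of all wild-type myotubes and the first below it. Within the deep set both dICR/dICR libraries lay below all 3 wild-type ones for Ttn, as in 13.7% of genes, whereas Neb and Mybph overlapped. The deep-set values were -1.45 ± 0.65 for Ttn, -1.16 ± 0.54 for Neb and -1.01 ± 0.48 for Mybph (edgeR adjusted p = 0.226, 0.239 and 0.244). Tcap and Mybpc2 turned mainly on the shallow wild-type libraries: Tcap had 6.47 and 15.1 CPM in dICR/dICR myotubes against 9.03, 10.3 and 22.5 CPM in deep wild-type ones, and its value was -2.7 ± 1.40 over all libraries and -0.38 ± 0.46 within the deep set. For Mybpc2 these were -3.25 ± 1.47 and -0.62 ± 0.70. Mybpc1 went the other way within the deep set, with 162 and 375 CPM in dICR/dICR myotubes against 156, 124 and 122 CPM, a log2 fold change of 1 ± 0.43 (adjusted p = 0.208), whereas over all libraries it was -0.61 ± 1.07 (adjusted p = 0.804). Cell cycle genes moved with genotype here, at a mean of 7.41 and 6.38 log2 CPM in dICR/dICR myotubes against 2.27 to 6.22 in wild-type ones, as did the differentiation markers, at 8.91 and 9.68 against 10.16 to 10.99, and their part in the result was not tested.

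In myoblasts no member passed in dICR/dICR against wild type over all libraries (2 against 4), where 0.0302% of genes were called by edgeR. The unadjusted p was under 0.05 for 2 members, Mybph and Nrap, against 12.1% of all genes, and DESeq2 called none. The median log2 fold change was -0.84, beside -0.06 over all genes. Within the shallow set (2 against 2) Nrap fell, so that 1 of 9 was called lower, where 3.31% of genes were. All 9 values were negative there, with a median of -1.55, beside 0.01 over all genes, and 7 had an unadjusted p under 0.05, against 22.2% of genes. The call was lost when any 1 of the 4 libraries compared was left out, which leaves 1 library in a group. The count was 4, 5 and 3 without wild-type myotubes 1, 2 and 3, which are not compared here. These libraries enter through the filter, the scaling and the spread shared by the fit. Leaving out 1 library at a time, 28 to 1658 of all genes were called in either direction, against 868 with none left out.

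Nrap had 70 and 34.1 CPM in dICR/dICR myoblasts, against 66, 57.4, 453 and 476 CPM in wild-type myoblasts 1 to 4. Both dICR/dICR libraries lay under the shallow wild-type ones, and of the deep ones the first lay above both and the second below both. The log2 fold change was -3.15 ± 0.62 within the shallow set (8.9-fold lower, adjusted p = 0.0167) and -2.34 ± 1.03 over all libraries (adjusted p = 0.399). The shallow call was lost without wild-type myoblast 3 (adjusted p = 0.0971), wild-type myoblast 4 (0.103), dICR/dICR myoblast 1 (0.0506) or dICR/dICR myoblast 2 (0.165). Mybph had 61.8 and 29.3 CPM in dICR/dICR myoblasts, against 92.6, 89.4, 152 and 198 CPM, and was the 1 member in which both dICR/dICR libraries lay below all 4 wild-type ones, as did 14.3% of genes. Its value was -1.54 ± 0.54 over all libraries (adjusted p = 0.305) and -1.94 ± 0.53 in the shallow set (adjusted p = 0.0559).

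For the ruler proteins, Ttn had 6410 and 2080 CPM in dICR/dICR myoblasts, against 2690, 1660, 8850 and 11900 CPM in wild-type myoblasts 1 to 4, and Neb had 584 and 260 CPM against 501, 357, 1600 and 1760 CPM. Both dICR/dICR libraries lay under the shallow wild-type ones for both genes. Against the deep ones, dICR/dICR myoblast 1 lay above both for both genes, and dICR/dICR myoblast 2 lay between them for Ttn and below both for Neb. Within the shallow set Ttn was at -1.29 ± 0.69 (adjusted p = 0.302) and Neb at -1.99 ± 0.59 (adjusted p = 0.0722). Myom1 (-1.55 ± 0.43), Myom2 (-1.52 ± 0.47), Mybpc1 (-1.57 ± 0.49) and Tcap (-1.51 ± 0.53) had similar values there with adjusted p of 0.06 to 0.116. In 8 of the 9 genes both dICR/dICR libraries lay below both shallow wild-type ones, an order seen in 29.8% of genes, the exception being Mybpc2 (0.391 and 0.782 CPM against 0.617 and 0.919 CPM). The Y-linked gene Ddx3y was at 14.5 and 63.1 CPM in dICR/dICR myoblasts whereas wild-type myoblasts 3 and 4 held 0.247 and 0.153 CPM, so genotype and the sex of the cells cannot be told apart in this set. Differentiation markers averaged 7.13 and 6.22 log2 CPM in dICR/dICR myoblasts, whereas wild-type myoblasts 3 and 4 averaged 8.96 and 9.18, and their part in the result was not tested.

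**Figure D3:**
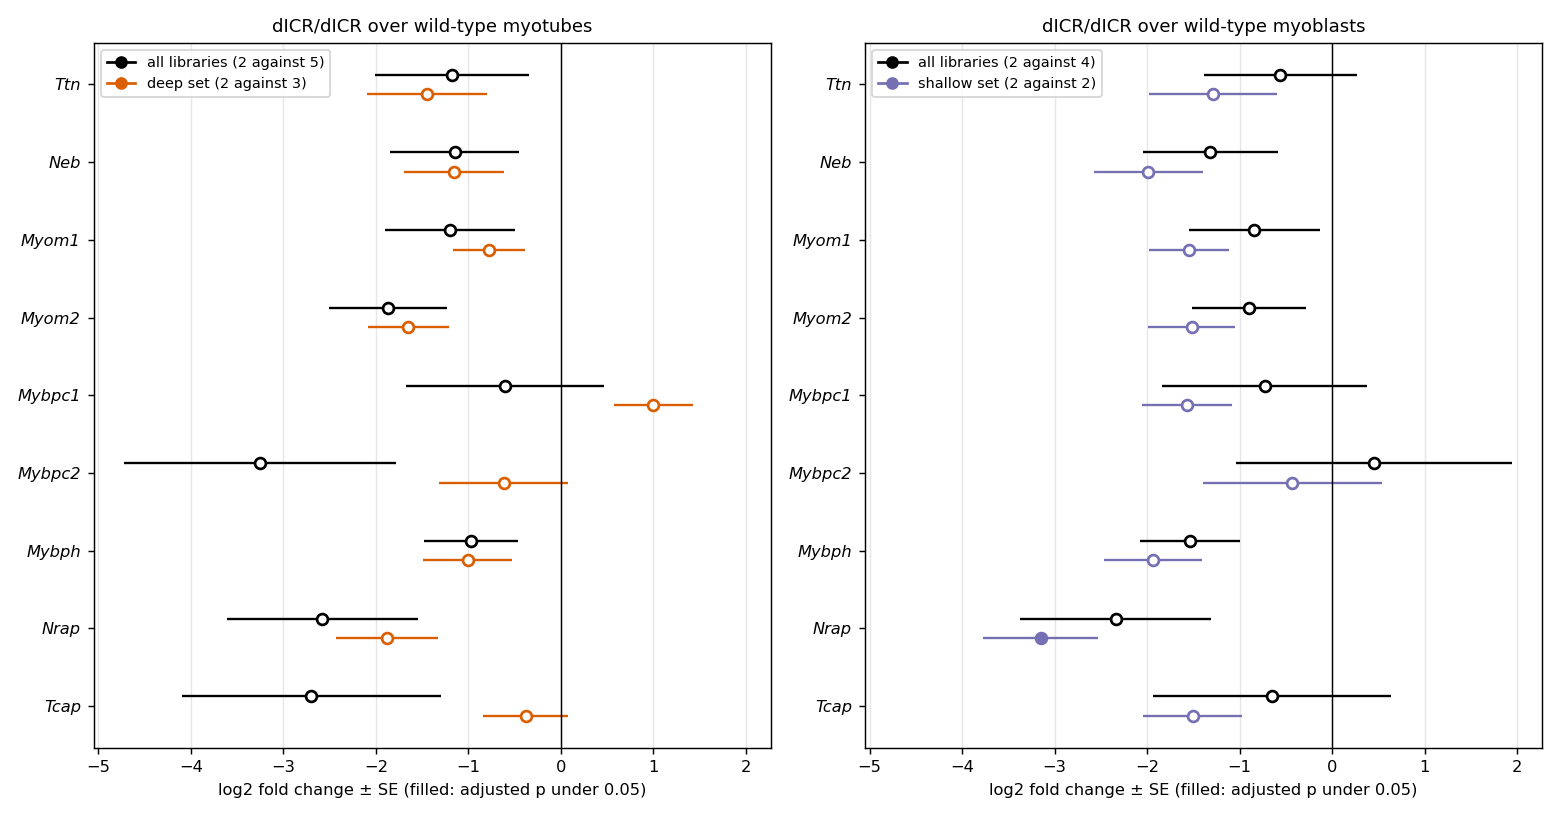
Log2 fold change of dICR/dICR over wild type with SE for each gene, in myotubes (left) and myoblasts (right), over all libraries and within the depth set that holds both genotypes, with filled points for adjusted p under 0.05. Nrap in shallow myoblasts, at -3.15, is the filled point, and Mybpc1 lies at 1 in deep myotubes and at -1.57 in shallow myoblasts.

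Differentiation in dICR/dICR cells can be read only across sets, since both myotube libraries are deep and both myoblast libraries shallow, so depth set and differentiation cannot be told apart. By edgeR no member passed (2 against 2), where 0.145% of genes were called, 3 had an unadjusted p under 0.05 (19.2% of all genes), and DESeq2 called Mybph among 1199 genes. Mybph had 238 and 544 CPM in dICR/dICR myotubes, against 61.8 and 29.3 CPM in dICR/dICR myoblasts, a log2 fold change of 3.1 ± 0.63 (adjusted p = 0.0698, and 0.000247 by DESeq2). In 7 of 9 genes both myotube libraries lay above both myoblast libraries, as in 30% of genes. The exceptions were Tcap, at 6.47 and 15.1 CPM against 12.7 and 9.51 CPM, and Mybpc2, at 0.527 and 0.618 CPM against 0.391 and 0.782 CPM. A model with a depth-set term borrows the shift between sets from wild type, and in it 1262 genes were called in either direction, against 24 without the term. In that model 6 of 9 were called higher, among them Mybpc1 (4.39 ± 0.61), Nrap (3.52 ± 0.81), Mybph (3.47 ± 0.68) and Tcap (3.25 ± 0.62), while Ttn had 2.42 ± 1.18 (edgeR adjusted p = 0.23). Without the term Tcap had -0.05. The term assumes the same shift in both cell types and genotypes. In wild type the shift was 2.26 in myoblasts and -0.81 in myotubes for Ttn, and 3.02 and 2.62 for Mybpc1. It also cannot be told apart from the sex of the cells there.

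The difference between the 2 differentiation changes, dICR/dICR minus wild type, was called in 0 of the 9 genes and in 0% of all genes by edgeR. At an unadjusted p under 0.05 there were 0 members, against 9.94% of genes, and DESeq2 called 0 members. The values ran from -3.7 ± 2.01 (Mybpc2) to 0.58 ± 0.70 (Mybph). Ttn was at -0.61 ± 1.13, Neb at 0.17 ± 0.95 and Myom2 at -0.97 ± 0.83, so differences of 1 log2 unit or more in either direction lie within 2 SE for Ttn and Neb. For Mybpc1 the genotype effect within the deep myotubes minus that within the shallow myoblasts was 2.57 ± 0.65, with an unadjusted p of 0.00204 and an adjusted p = 0.152 by edgeR, where 0.181% of genes were called, a test chosen after the data were seen.

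Ratios between 2 genes in 1 library do not depend on how libraries are scaled, apart from the prior count of 2 added before the log. That prior is set in proportion to library size and weighs on Mybpc2, which had 5 to 111 counts per library. Over 5 ratios and 3 contrasts, 15 tests in all, none passed after adjustment (exact permutation, two-sided, Benjamini-Hochberg). The log2 ratio of Myom2 over Myom1 was 1.2, 0.76, 1.08, 0.6 and 0.74 in wild-type myotubes 1 to 5, against 0.39, 0.31, -0.19 and 0.03 in wild-type myoblasts 1 to 4. Every myotube library was above every myoblast library. The difference of 0.74 had an exact permutation p = 0.00794, the smallest that 5 against 4 libraries allow, and an adjusted p of 0.119. In dICR/dICR myotubes the same ratio was 0.28 and 0.15, below all 5 wild-type myotubes. These deep libraries also lay below the deep wild-type myoblasts (0.39 and 0.31) and above the shallow ones (-0.19 and 0.03). The difference from wild-type myotubes was -0.66, with an exact permutation p = 0.0476, the smallest for 2 against 5, and an adjusted p of 0.238. In dICR/dICR myoblasts the ratio was -0.09 and 0.05, inside the wild-type myoblast range.

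Neb over Ttn was lower in wild-type myotubes, at -3.1 ± 0.45 (SD, n = 5), than in wild-type myoblasts, at -2.47 ± 0.23 (n = 4), with a difference of -0.63, an exact permutation p = 0.0397 and an adjusted p of 0.238. It was -2.98 and -3.18 in dICR/dICR myotubes and -3.46 and -3.00 in dICR/dICR myoblasts, and both of these myoblast values lay below all 4 wild-type myoblasts (exact permutation p = 0.0667, the smallest for 2 against 4). Tcap over Ttn split the wild-type myotubes by depth set, at -11.47, -11.21 and -11.59 in the deep and -7.63 and -6.95 in the shallow libraries, with dICR/dICR myotubes at -10.25 and -10.46. Wild-type myoblasts were at -9.47, -8.71, -8.08 and -8.59. Mybph over Mybpc1 and Mybpc2 over Mybpc1 overlapped between wild-type myotubes and myoblasts (exact permutation p = 0.325 and 0.246).

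**Figure D4:**
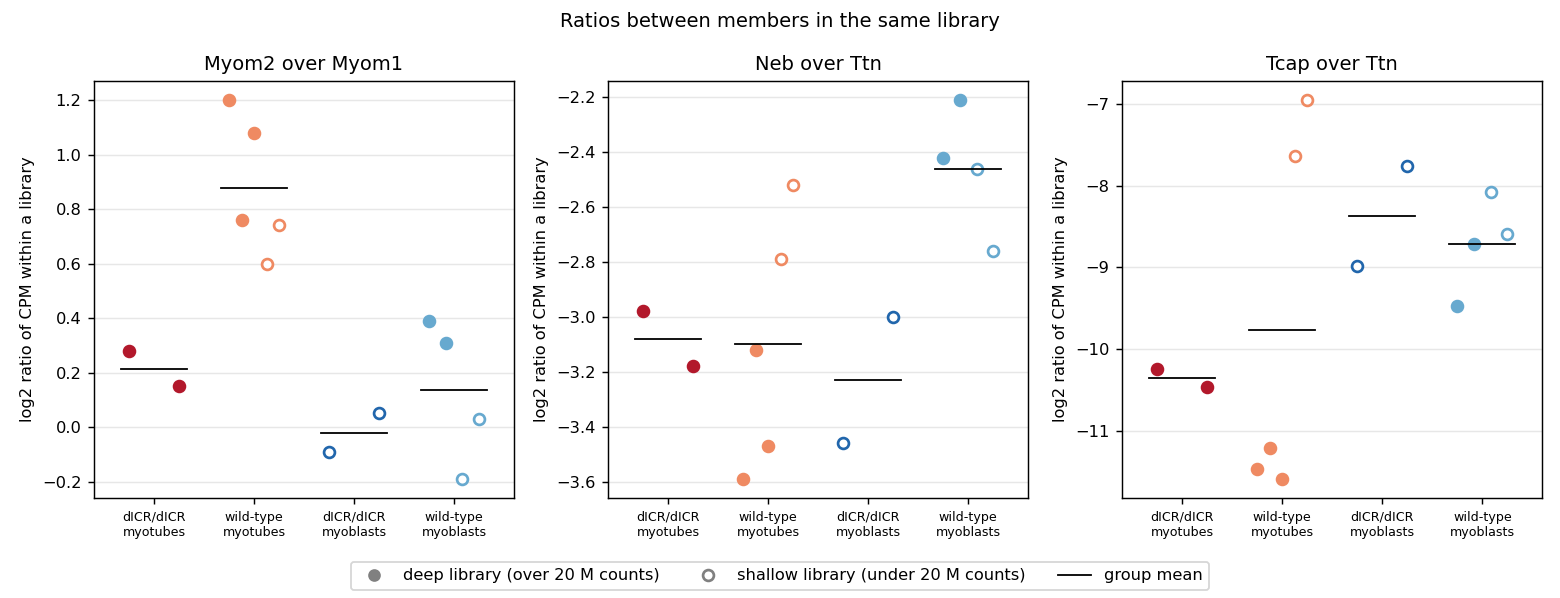
Log2 ratio of CPM of 2 genes in the same library, with filled points for deep and open points for shallow libraries and group means as black lines. Myom2 over Myom1 lies at 0.6 or more in all 5 wild-type myotubes and at 0.39 or less in the other 8 libraries, and Tcap over Ttn splits wild-type myotubes into deep libraries at -11.21 or less and shallow ones at -7.63 and -6.95.

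Across the 13 libraries, which share cell type, genotype and depth set as common sources of variation, log2 CPM of the 9 genes had pairwise Pearson r of 0.5 to 0.98 (36 pairs). Myom1 with Myom2 (0.98) and Ttn with Neb (0.97) were the highest, and Tcap with Mybph (0.5) the lowest. Tcap was closest to Mybpc2 (0.9) and Mybpc1 (0.88). Among the genes whose levels were most like the mean profile of the 9 were Ppapdc3 (r = 0.986), the muscle glycogen synthase gene Gys1 (0.985), the calcium channel gene Cacna1s (0.983) and the sarcalumenin gene Srl (0.983), over 13 libraries.

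Genes that work with these proteins were counted in the same tests. Over all genes tested, 8.86% were called higher and 10.2% lower in wild-type differentiation, with a median of 0.02, beside which the lists below are given. Of 31 tested genes for partners of titin, nebulin and the M-band, 11 rose and 2 fell (median 1.82). The thin filament gene Lmod3 (2.37 ± 0.46) and Klhl40 (2.28 ± 0.47), whose product stabilises it and nebulin, rose, as did Trim63 (3.11 ± 0.60), which encodes a ubiquitin ligase that binds titin near the M-band. Nebl, the shorter nebulin relative of heart and non-muscle cells, fell by 2.61 ± 0.64, and the ankyrin repeat gene Ankrd1, whose product binds titin, fell by 1.11 ± 0.31. Of 23 thick and thin filament genes 14 rose, with Myl1 (1.91 ± 0.31), Actc1 (3.59 ± 0.61) and Tnnt2 (2.42 ± 0.49) having the smallest adjusted p, and of 18 Z-disc and costamere genes 10 rose, among them Xirp1 (2.35 ± 0.44) and Ldb3 (2.5 ± 0.52). Of 16 myogenic transcription factors 6 rose, among them Mef2c (2.44 ± 0.44) and Tead4 (2.36 ± 0.25), and 3 fell, Myf5 (-2.12 ± 0.39), Pax7 (-1.83 ± 0.36) and Eya1 (-0.97 ± 0.25). Of 15 cell cycle genes 8 fell.

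The dICR/dICR comparisons gave few calls in these lists over all libraries, where 0.556% of all genes were called in myotubes and 0.0302% in myoblasts. Among partners, filament, Z-disc and transcription factor genes none was called by edgeR in either cell type. Of 15 cell cycle genes 1 was called higher in dICR/dICR myotubes, Ccne1 (2.24 ± 0.40). Within the deep myotubes 1.81% of all genes were called higher and 1.83% lower. There 1 of 31 partner genes was higher, Actn3 (3.2 ± 0.39), which encodes the actinin of fast fibres. Of the same list 2 were lower, the titin-binding Ankrd2 (-5.21 ± 0.56) and Csrp3 (-1.78 ± 0.38), whose product binds Tcap. Of the filament genes Acta1 was lower (-1.31 ± 0.32), and of the transcription factors Myf6 was higher (2.28 ± 0.43). Of 15 cell cycle genes 3 were higher, Ccne1 (1.97 ± 0.40), Mcm7 (1.4 ± 0.34) and Pcna (1.84 ± 0.45). Within the shallow myoblasts, where 3.31% of all genes were called lower and calls in either direction ran from 28 to 1658 with 1 library left out, 16 of 31 partner genes were lower, with Ankrd2 (-4.37 ± 0.56), Ckm (-3.55 ± 0.48) and the myosin chaperone gene Unc45b (-1.84 ± 0.35) having the smallest adjusted p, and so were 11 of 23 filament, 5 of 18 Z-disc and 3 of 16 transcription factor genes, the last being Rbm24, Mef2a and Myog (-1.7, -1.75 and -2.1).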

How the data were processed

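Per the submitters' processing notes, reads of ribosome-depleted RNA were aligned with TopHat2 to mm9 and counted with HTSeq, and the authors deposited raw counts per gene with no normalisation. The sources used here give no versions, annotation, counting mode or strand setting. Although the series text speaks of 2 to 3 replicates, the table has up to 5 columns for a group, and all 13 were used as labelled. Replicate pairs differed by more than counting error (chi-square per degree of freedom 4.7 to 368.8 over genes with at least 10 counts).

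Counts were analysed in R 4.3.3 with edgeR 4.0.16. The filter filterByExpr, with a minimum count of 10 and a minimum total of 15, kept 16537 genes and all 9 members. CPM were scaled by TMM factors, and 1 quasi-likelihood model with 4 group means (9 residual degrees of freedom) was fitted. A second model had 6 means, 1 per group and depth set, for values within sets (7 residual degrees of freedom). Tests were two-sided with Benjamini-Hochberg adjustment over all genes tested, and an adjusted p under 0.05 is a call. The SE is the absolute log2 fold change divided by the square root of the F statistic. Log2 CPM used a prior count of 2. The tests were also run on simulated counts, in which each gene had the same mean in all libraries apart from planted changes. Such counts hold no depth-set or sex difference and cannot show how the tests behave under them. Alternatives were DESeq2 1.42.0, other scaling and filters, a depth-set term, a replicate block and leaving out each library. Named were all members, of each other list at most the 3 called genes with the smallest adjusted p per direction, the 5 genes nearest to the mean profile (1 is not reported here), and marker genes. The members and lists were chosen with earlier results of these data known. Gene spans and exon lengths are from GENCODE M21 on GRCm38 and promoters from RefSeq on GRCm38.p6, not mm9, so they describe the genes and not the counted features.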

Additional observations from a re-analysis of the deposited data

Results flagged for a closer look

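Wild-type myotube 3 stood apart for Ttn, at 69400 CPM against 18900 to 26600 CPM in the other 4 wild-type myotubes, its gap being 0.848 of the group's range (0.71 is the 95% limit for 5 samples). Wild-type myotube 5 stood apart for Mybpc1, at 1210 CPM (0.716 of the range), and for Mybpc2, at 22.6 CPM (0.867). Of 28 sets of values checked in this way 3 were marked, and chance marks about 1 in 20.

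Mybpc1 had genotype effects of opposite sign in deep myotubes and in shallow myoblasts. Each cell type holds both genotypes in a single depth set, so cell type and depth set cannot be told apart here. In the shallow myoblasts genotype and the sex of the cells cannot be told apart either. Both dICR/dICR myotubes were above the 3 deep wild-type myotubes, an order seen in 15.3% of genes tested. Both dICR/dICR myoblasts were below the 2 shallow wild-type myoblasts, as in 29.8% of genes. The difference between the log2 effects was 2.57 ± 0.65. The test of this difference did not pass (edgeR quasi-likelihood, adjusted p = 0.152) and passed with no filter on low counts (adjusted p = 0.0474).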

How the results depend on the processing

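With 1 library left out, the members called ranged from 2 to 6 in wild-type differentiation, from 0 to 7 within its shallow set, from 0 to 5 for the genotype effect in shallow myoblasts, from 0 to 2 in deep myotubes, and from 2 to 7 for shallow minus deep in wild-type myoblasts. Without a library the genotype effects over all libraries, differentiation in dICR/dICR and the 3 differences between changes called 0 members throughout.

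DESeq2 called 1 member for differentiation in dICR/dICR and 2 for the genotype effect in myotubes, against 0 and 0. The depth-set term called 6 and, for the genotype effect in myoblasts, 1 (Nrap, adjusted p = 0.0497), against 0 and 0. Library size alone called 2 in wild-type differentiation, against 6, and 2 in shallow myoblasts, against 1. With no filter 6 were called in shallow myoblasts, against 1, 2 in deep myotubes, against 0, and 1 for the difference between genotype effects, against 0. The cause of these changes was not tested. For shallow myoblasts, the share of all genes called with no filter or with library size alone is not given here. Those member counts therefore cannot be read against a background.

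Library size alone moved the median log2 fold change of all genes by -0.28 in wild-type differentiation, -0.29 in dICR/dICR differentiation, 0.15 for genotype in myoblasts and 0.14 in myotubes.

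The replicate numbers of the titles share no stated animal or culture, and 5 of 14 same-numbered pairs had correlated deviations above 0.1 (-0.41 to 0.52). With the replicate number as a block, 6 members were again called in wild-type differentiation and 0 in the other comparisons. The block turned Ttn, Mybpc1 and Tcap to 0.48, 0.79 and 1.37 for genotype in myoblasts and Mybpc1 and Tcap to 1.41 and 0.29 in myotubes, and the genes called overall were 100, 0 and 3 for differentiation in dICR/dICR and genotype in myoblasts and in myotubes, against 24, 5 and 92.

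Signs of uncalled values turned elsewhere too. For differentiation in dICR/dICR, Mybpc2 (0.00) was -0.15 with DESeq2, -0.29 with library size alone and -0.08 with a minimum count of 30, and Tcap (-0.05) was 0.07 with no filter and 3.25 with the depth-set term. That term gave -1.2 for Mybpc2 (genotype, myoblasts), 1.07 for Mybpc1 (genotype, myotubes), and 0.67, 0.24, 1.17 and 1.18 for Myom1, Mybpc2, Nrap and Tcap in the difference between differentiation changes, where DESeq2 gave -0.03 for Mybpc1. With 1 library left out, differentiation in dICR/dICR ran from -0.45 to 0.55 for Mybpc2 and from -0.78 to 0.43 for Tcap, and genotype in myoblasts from -1.59 to 0.03 for Ttn and from -0.1 to 0.93 for Mybpc2 (from -0.95 to 0.04 in the shallow set). Genotype in myotubes ran from -1.33 to 0.35 for Mybpc1 and, in the deep set, from -1.11 to 0.14 for Tcap. The difference between differentiation changes ran from -1.5 to 0.42 (Ttn), -0.57 to 0.88 (Neb), -0.97 to 0.31 (Myom1), -0.6 to 1.1 (Mybpc1), -0.14 to 1.22 (Mybph) and -0.97 to 0.37 (Nrap). Ratio differences ran from -0.4 to 1.46 for Mybpc2 over Mybpc1 (genotype, myoblasts), -0.1 to 0.16 for Neb over Ttn (genotype, myotubes), and -0.26 to 0.95 and -1.04 to 0.12 for Tcap over Ttn (genotype, myoblasts and myotubes).

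Counts over all genes also moved. DESeq2 called 1199, 464, 1120 and 72 genes for differentiation in dICR/dICR, genotype in myoblasts, genotype in myotubes and the difference between differentiation changes, against 24, 5, 92 and 0, and the depth-set term called 1262, 333, 425 and 16, and 5267 against 3158 in wild-type differentiation. With no filter the counts were 41, 1, 1053 and 215 for differentiation in dICR/dICR, genotype in myoblasts, genotype in deep myotubes and the difference between depth sets, against 24, 5, 601 and 72. A minimum count of 30 gave 53 for differentiation in dICR/dICR. The difference between genotype effects had 58, 48 and 100 calls with library size alone, a minimum count of 30 and no filter, against 30. With 1 library left out the counts ran from 1769 to 3574 (wild-type differentiation), 0 to 78 (dICR/dICR), 0 to 6 (genotype, myoblasts), 1 to 919 (genotype, myotubes), 1834 to 5780 and 9 to 2154 (deep and shallow differentiation), 28 to 1658 (shallow myoblasts), 53 to 2263 (deep myotubes), 1435 to 4563 and 897 to 2633 (shallow minus deep, myoblasts and myotubes), 0 to 376 and 2 to 315 (the differences between depth sets and between genotype effects). Mybpc2 had 5 to 111 counts a library, so its values carry more counting error than those of the other 8 genes.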
